A study of Mus musculus with 10 samples.

Results

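The genes described here are the 35 alpha and gamma protocadherins of mouse chromosome 18, taken as every row of the raw count table on that chromosome whose symbol begins with Pcdha (14 genes) or Pcdhg (21 genes), out of 35591 genes in the table. RNA was sequenced from the frontonasal prominence (FNP), the embryonic tissue from which the forehead and nose develop, dissected at E10.5 from FVB/NJ mice. The comparison is between 6 Smchd1 WT/WT libraries (WT, labelled 3 male and 3 female) and 4 Smchd1 MD1/MD1 libraries (MD1, labelled 2 male and 2 female). MD1 stands for MommeD1, a loss-of-function allele of Smchd1 that came from a mutagenesis screen and that the mutant embryos carried in every tissue, not in the FNP alone. SMCHD1 is a chromatin protein that keeps the inactive X chromosome and certain autosomal clusters silent, among them the clustered protocadherins, and the series asks what its absence does to expression in the FNP. The labels do not say whether each library came from its own embryo, and a p-value here weighs a difference against the spread of the libraries, which may in part be technical.

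Clustered protocadherins are cadherin-like adhesion proteins of the cell surface, best known in neurons, where combinations of isoforms give a cell an identity that it uses to recognise its own processes. Each alpha or gamma gene consists of a variable exon with its own promoter, which encodes the extracellular, transmembrane and proximal cytoplasmic parts, spliced to constant exons at the end of the cluster that encode a common cytoplasmic tail. Most variable exons are chosen stochastically by promoters that bind CTCF, whereas the C-type members (Pcdhac1, Pcdhac2, Pcdhgc3, Pcdhgc4 and Pcdhgc5) follow different rules and several of them are expressed more evenly between cells.

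That arrangement decides what a read count of such a gene holds. In the GENCODE M21 annotation (GRCm38), the 14 alpha genes lie between positions 36930184 and 37187661 of chromosome 18 and share 3 constant exons of 59, 89 and 2712 bases, the last ending at 37187657. The 21 gamma genes lie between 37661793 and 37841873 and share constant exons of 59, 89 and 1968 bases. A median of 53.4% of the exon bases of an alpha gene, and 43.3% of those of a gamma gene, belong to every member of its cluster. The rest is mostly the variable exon, from 2346 to 4675 bases that no other alpha gene has and from 1570 to 5508 that no other gamma gene has. Of the 35 genes, 14 have private bases that also lie in an exon of some other annotated gene model, 5 of them alpha and 9 gamma. As 2 alpha rows carry the symbol Pcdha11, they are called here Pcdha11 (proximal row), where RefSeq places Pcdha10, and Pcdha11 (distal row).

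**Figure D1:**
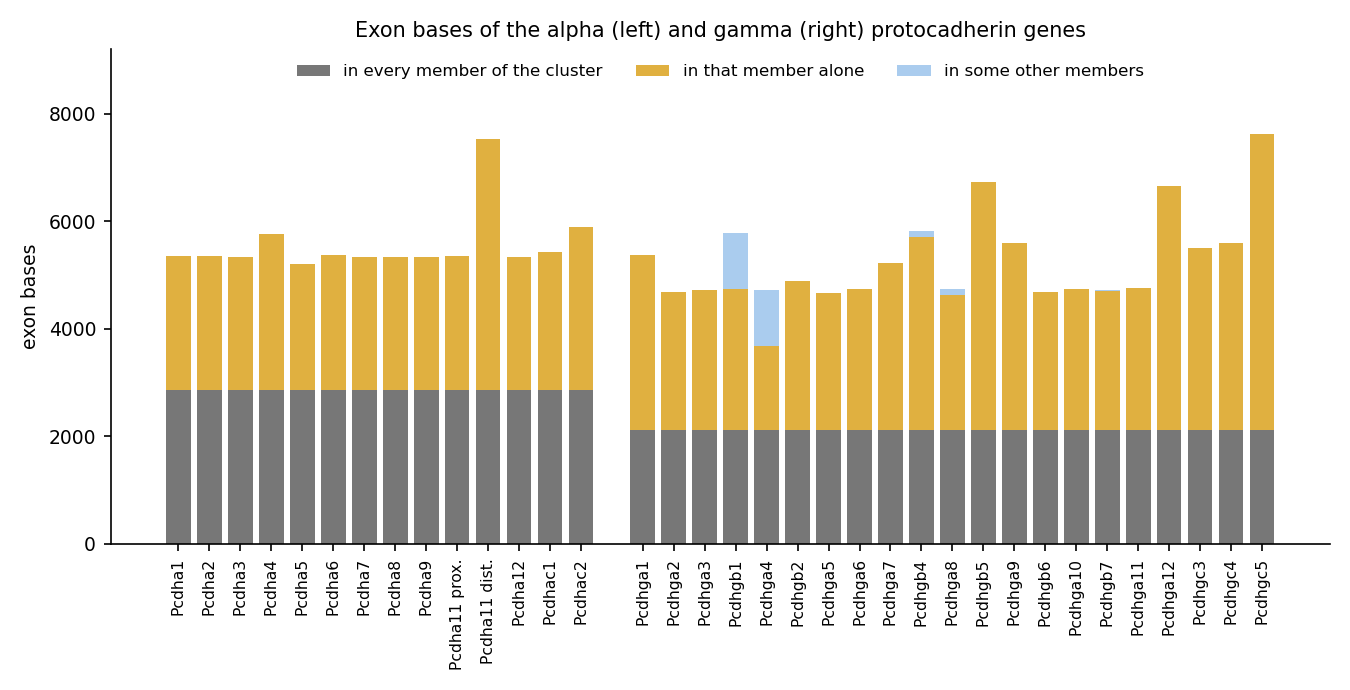
Exon bases (vertical axis) of each of the 14 alpha and 21 gamma genes in order along the chromosome, divided into bases present in every member of the cluster (grey), in that gene alone (yellow) and in some other members (blue). The grey part is 2860 bases in each alpha gene and 2116 in each gamma gene.

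Several properties of the libraries bear on these values. Smchd1 itself lay between 229 and 265 counts per 1000000 counts of the TMM-scaled library (CPM) in WT and between 55.3 and 99.8 in MD1 (log2 fold change -1.65 ± 0.15 SE, adjusted p = 0.000745, edgeR). Depth ran from 4199814 counts in MD1 replicate 3 to 24154536 in WT replicate 3. The library labelled MD1 female replicate 1 had 88.1 CPM of the Y-linked gene Ddx3y. The libraries labelled male had 78.1 to 96.0 and the other libraries labelled female 0. Its Xist level of 203 CPM lay between those of the libraries labelled male (0.595 to 2.07) and the other libraries labelled female. The latter had 2591 to 2692 CPM in WT and 6715 in MD1 replicate 4. The Y-linked reads of MD1 replicate 1 go against its sex label and its Xist level matches neither sex. MD1 replicate 4 stood apart on the first principal component, which carried 48.7% of the variance, at -76.6 against -4.66 to 14.9 for the other 9 libraries. The readouts, the excess of named genes and the summed excess are given with and without these libraries.

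The count table bears the mark of the shared exons. In WT replicate 1, 9 of the 14 alpha genes had exactly 44 reads, the lowest count in the cluster, and the median over the 14 genes was also 44. In WT replicate 2 the lowest alpha count was 43 and the median 44. The lowest gamma count in WT replicate 1 was 1958 and the median 1980. The lowest member of the cluster held on average 98.0% ± 1.1 (SD, n = 6) of the reads of the median alpha gene in WT and 98.6% ± 0.2 of those of the median gamma gene, far above the share of its bases that are constant. The rows of a cluster are therefore repeated countings of largely the same reads, and each cluster was read as 1 measurement, the mean CPM over its members in a library.

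Read as clusters, the mean alpha level was higher in MD1 than in WT with groups that overlapped, and the mean gamma level differed by about the spread between libraries. The alpha readout had its lowest value of 2.16 CPM, its median of 3.29 and its highest of 5.98 among the 6 WT libraries. In MD1 it was 9.06, 8.48, 4.93 and 14.8 CPM in replicates 1 to 4. Replicates 1, 2 and 4 lay above every WT library, and replicate 3, the shallowest library, lay below WT replicates 1 (5.00) and 4 (5.98). The difference in mean log2 readout was 1.32, a ratio of 2.49, beside within-group SDs of 0.56 in WT and 0.65 in MD1 on the same log2 scale.

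The gamma readout was far higher, with a lowest value of 191 CPM and a highest of 237 in WT. In MD1 it was 226, 187, 187 and 196 CPM, so that replicates 1 and 4 lay within the WT range and replicates 2 and 3 just below it. The difference in mean log2 readout was -0.12, close to the SD between libraries of either group (0.10 in WT and 0.13 in MD1). The alpha readout as a percentage of the gamma readout in the same library does not depend on library scaling. It ran from 1.02% to 2.73% in WT and was 4.01%, 4.54%, 2.64% and 7.58% in MD1. Here too MD1 replicate 3 alone overlapped the WT libraries, below WT replicate 4. The mean log2 ratio of alpha to gamma was 1.44 higher in MD1. Without the library labelled MD1 female replicate 1 that difference was 1.48, and without MD1 replicate 4 it was 1.17. Without both MD1 libraries labelled female it was 1.10, and the alpha difference alone was 0.90. No p-value is given for a readout, which is a score over the members.

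**Figure D2:**
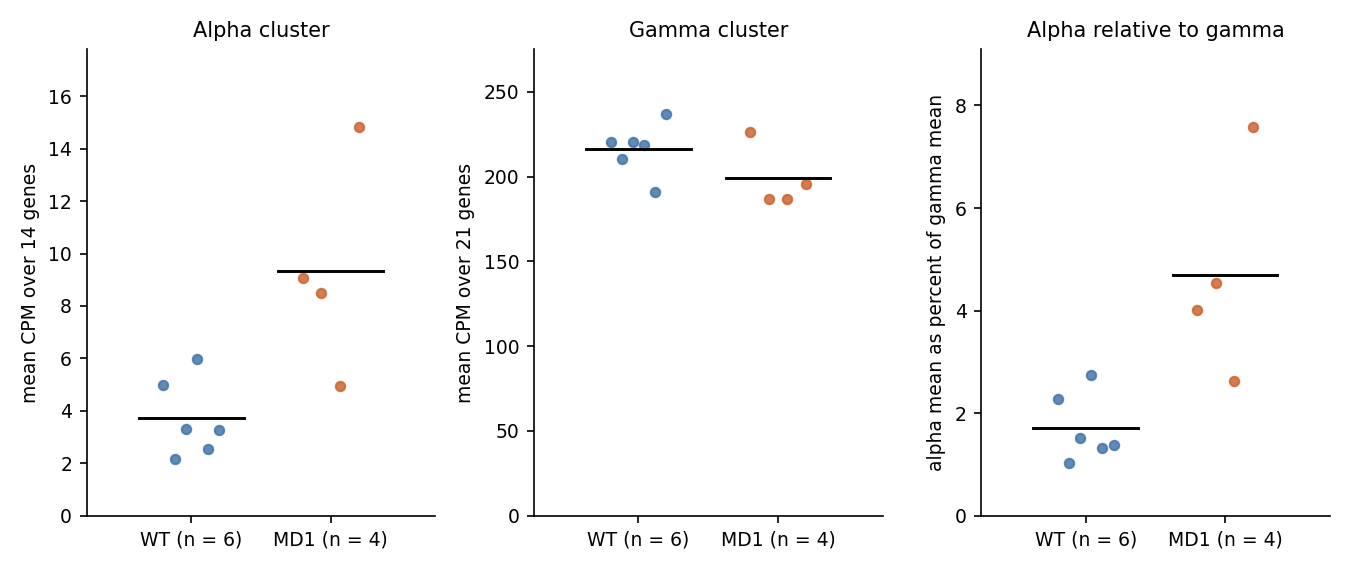
Mean CPM over the 14 alpha genes (left) and over the 21 gamma genes (middle), and the alpha mean as a percentage of the gamma mean (right), with 1 point per library and a bar at each group mean (WT, n = 6; MD1, n = 4). In the alpha panel 3 of the 4 MD1 libraries lie above all WT libraries, and in the gamma panel 2 of the 4 MD1 libraries lie within the WT range and 2 just below it.

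Gene by gene, no alpha and no gamma protocadherin passed the threshold. All 35 genes passed the filter on low counts, and by the quasi-likelihood test of edgeR 0 of 14 alpha and 0 of 21 gamma genes had an adjusted p at or below 0.05, in a comparison that called 0.0776% of 15471 autosomal genes. At an unadjusted p under 0.05 there were 14 alpha genes and 1 gamma gene, beside 9.8% of all genes tested. The log2 fold changes of the alpha genes were positive in 14 of 14, from 0.89 to 1.56 with a median of 1.39, where the median of all genes tested was 0.00. Their standard errors lay between 0.28 and 0.34 and their adjusted p between 0.300 and 0.495. Those of the gamma genes were negative in 21 of 21, from -0.21 to -0.06 with a median of -0.11, standard errors of 0.08 and adjusted p between 0.495 and 0.766. Since the 14 alpha rows share most of their reads, as do the 21 gamma rows, the agreement within a cluster counts as 1 observation.

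Whether the alpha genes are called depended on the test. DESeq2 called 11 of the 14 alpha genes and 0.343% of all genes, and the exact test of edgeR called 7 and 0.2% of all genes. limma-voom (0.0776% of all genes) and limma on the deposited log2 RPKM (0.0259%) called none of them. The gamma genes gave 0 calls by any of these tests. For comparison, the Pcdhb genes, which lie between the clusters as single-exon genes without constant exons, had log2 fold changes from 0.50 to 3.54 over the 19 tested, and 6 of them passed the threshold in the edgeR fit that called 0.0776% of all genes.

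Within the alpha cluster, the genes named by the largest and smallest fold change were Pcdha4 and Pcdhac2. Pcdha4 had a lowest value of 2.02 CPM, a median of 3.16 and a highest of 5.84 in WT, and ran from 5.31 CPM in MD1 replicate 3 to 16.5 in MD1 replicate 4, so that only MD1 replicate 3 fell within the WT range. The log2 fold change was 1.56 ± 0.33 (SE, adjusted p = 0.357). Pcdhac2, a C-type member, had WT values from 3.87 to 8.29 CPM and MD1 values of 9.31, 9.46, 6.28 and 14.8, with a log2 fold change of 0.89 ± 0.28 (adjusted p = 0.495). Pcdhac1, the other C-type alpha gene, stood at 1.32 ± 0.34 and Pcdha11 (distal row) at 1.33 ± 0.30, both short of the threshold. For only 2 alpha genes, Pcdha2 and Pcdha11 (distal row), did all 4 MD1 libraries exceed all 6 WT libraries in CPM. In the autosomal background 0.989% of genes did so.

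In the gamma cluster the extremes were Pcdhgb4 at -0.06 ± 0.08 and Pcdhgc3 at -0.21 ± 0.08 (adjusted p = 0.766 and 0.495). Pcdhgc3 had the highest count of the gamma genes, with 304 to 374 CPM in WT and 331, 282, 294 and 277 in MD1. These 2 ranges overlap only through the library labelled MD1 female replicate 1. Pcdhgc4 and Pcdhgc5 stood at -0.13 ± 0.08 and -0.12 ± 0.08. No gamma gene had groups that did not overlap.

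Levels per length were compared on the deposited log2 RPKM scale. The WT means of the alpha genes lay between -1.24 for Pcdha11 (distal row) and -0.32 for Pcdhac2, and those of the gamma genes between 4.61 for Pcdhgc5 and 5.82 for Pcdhgc3. The between-library SD within WT was 0.47 to 0.60 for alpha genes and 0.10 to 0.11 for gamma genes. As the rows of a cluster share most of their reads, this SD is largely common to them. It does not measure how certain their order is. Apart from the gene with the largest excess, the level of the gamma genes fell with exon length. Of the alpha genes without Pcdhac2, the longest were the lowest, Pcdha11 (distal row) with 7535 exon bases and Pcdha4 with 5768. The remaining alpha genes span only 5206 to 5419 bases, and their order did not follow length. The shortest of them, Pcdha5, stood at -0.82, below the longer Pcdha11 (proximal row) at -0.76. The Pearson correlation of the WT level with the log2 of the exon length was -0.43 across all 14 alpha genes and -0.96 across the 13 without Pcdhac2. It was -0.79 across all 21 gamma genes and -0.99 across the 20 without Pcdhgc3. These are descriptions across genes that share reads, in which a nearly constant count is divided by each gene's own length. For those 20 gamma genes a level per length says mostly how long the gene is. For the 13 alpha genes the correlation rests on Pcdha11 (distal row) and Pcdha4.

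What is particular to a member was approached through its excess, the reads that it held beyond the lowest member of its cluster in the same library. The excess takes away the constant exons, together with any private reads of the lowest member, and was tested in the same fit across all genes with the members' rows replaced, which called 0.103% of 15459 rows. Reads in this remainder come from variable exons, from stretches that only some members share, or from gene models that overlap either. Partly shared stretches span 1038 bases of Pcdhgb1, 1041 of Pcdhga4, 108 of Pcdhgb4 and 111 of Pcdhga8. Reads there are not particular to 1 member, and an excess per kilobase is divided by private bases alone. A lowest member with private reads of its own makes every excess of that library smaller.

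In the private part of the alpha cluster, the gene with the most reads was not the same in the WT and MD1 libraries, which is given as a description with no test. In all 6 WT libraries the alpha gene with the most reads was Pcdhac2, with an excess of 26, 46, 39, 48, 16 and 18 reads. In MD1 it was the highest in 0 of 4 libraries, where Pcdha4 led in replicates 1 and 2, Pcdha2 in replicate 3 and Pcdha6 in replicate 4. Pcdha2 and Pcdha6, which the naming rule does not cover, are named because they led a library, so they were chosen after their values were seen.

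Pcdha4 had an excess of 1, 1, 3, 3, 2 and 1 reads in the WT libraries and of 30, 17, 5 and 34 in the MD1 libraries. In CPM this was 0.0458 to 0.189 in WT and 1.43, 1.69, 1.21 and 2.58 in MD1, with no overlap between the groups. The fitted log2 fold change was 3.87 ± 0.40 (SE). The gene entered the fit only through its MD1 counts, as 4 MD1 and 0 WT libraries reached the cutoff of the filter on low counts. A row admitted in that way had to differ, so the value is a description and no p is given for it. It ranged from 3.62 to 4.02 when each of the 10 libraries was left out and was 3.64 without both MD1 libraries labelled female. Of its 2904 private bases, 2500 also belong to exons of the models Gm42416 and Gm38225, so reads of Pcdha4 and of those models cannot be told apart there.

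The excess of Pcdhac2 lay from 1.31 to 2.79 CPM in WT and was 0.712, 1.49, 2.17 and 0.911 in MD1. MD1 replicates 1 and 4 lay below every WT library and the other two within the WT range, and the log2 fold change of -0.73 ± 0.37 missed the threshold (adjusted p = 0.517). With 1 library left out it ran from -0.97 to -0.47, and without both MD1 libraries labelled female it was -0.17. Pcdhac1 had 9 excess reads over the 6 WT libraries and 0 over the 4 MD1 libraries, too few to test. With Pcdhac1, a total of 12 alpha genes had too few excess reads to pass the filter. Their WT totals ran from 1 to 29 reads over 6 libraries. Of these, Pcdha2 had 0, 0, 0, 3, 0 and 0 excess reads in WT and 9, 6, 13 and 15 in MD1, and Pcdha6 had 0, 1, 3, 0, 1 and 0 against 17, 6, 3 and 38.

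Summed over the 12 alpha genes other than the C-type members, the excess was 0.504 to 1.99 CPM in the WT libraries and 5.80, 5.68, 9.42 and 12.3 CPM in the MD1 libraries. Every MD1 library lay above every WT library, including MD1 replicate 3, whose alpha readout overlapped WT. This sum rests on few reads there, and 2.17 CPM of it is the excess of Pcdha11 (distal row). Of that row's 4675 private bases, 3407 also lie in exons of other gene models. The MD1 mean of 8.30 CPM was 9.13 without the library labelled MD1 female replicate 1, 6.96 without MD1 replicate 4 and 7.55 without both, beside 1.20 in WT. Per kilobase of private exon the 12 genes summed to 0.423 ± 0.203 CPM in WT and 3.12 ± 1.22 in MD1 (SD, n = 6 and n = 4). The shared reads per kilobase of constant exon were 1.21 ± 0.50 and 3.02 ± 1.41. As a percentage of the shared density the 12 genes thus held 24.5% to 66.7% in WT and 74.3% to 230% in MD1, whereas the 2 C-type genes held 44.7% to 101% in WT and 6.19% to 50% in MD1. Both upper MD1 values belong to MD1 replicate 3, and without it the MD1 ranges were 74.3% to 98.3% and 6.19% to 17.7%. The values are sums over members and carry no test, and the difference between these 12 genes and the C-type genes was not tested.

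**Figure D3:**
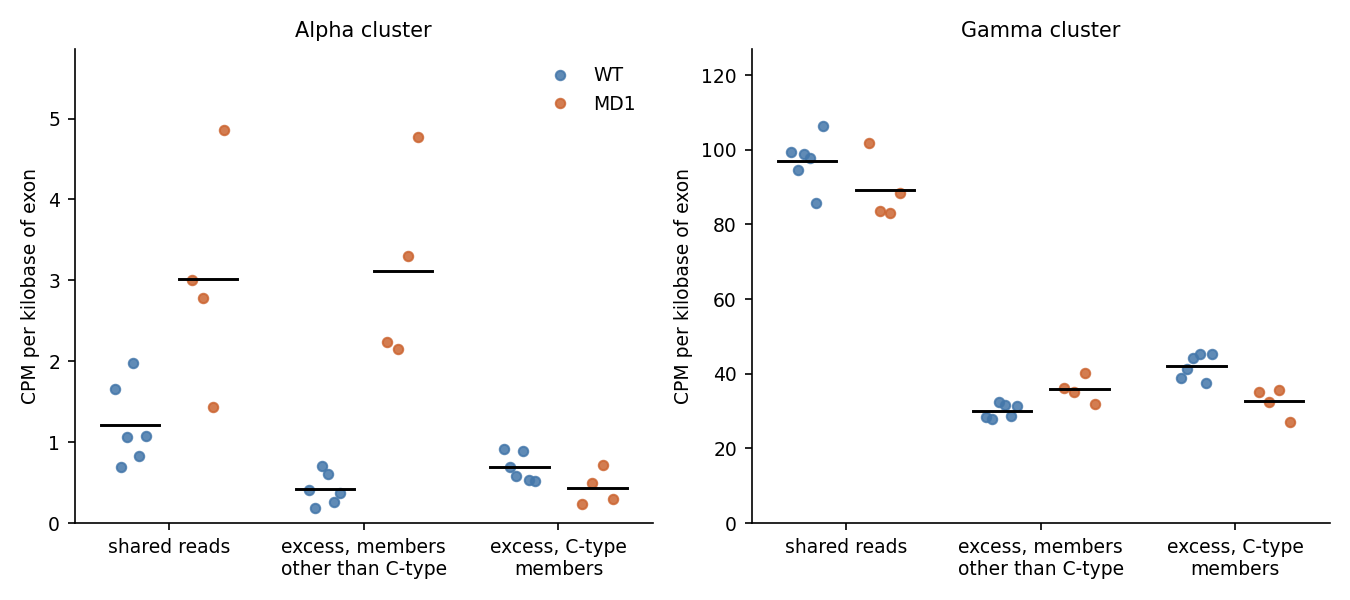
CPM per kilobase of exon for the shared reads of the cluster, the summed excess of members other than C-type and the summed excess of C-type members, for alpha (left) and gamma (right), with 1 point per library and bars at the means of WT (n = 6) and MD1 (n = 4). In the alpha panel the middle category lies between 0.183 and 0.711 in WT and between 2.16 and 4.77 in MD1.

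The largest excess in the gamma cluster was that of the Pcdhgc3 row, and 3 other genes passed the threshold, 2 higher and 1 lower in MD1. Pcdhgc3 had an excess of 40.8 ± 3.2 CPM per kilobase of private exon in WT, where the other 20 gamma genes had from 0.0420 (Pcdhga1) to 5.40 (Pcdhga11). The model Gm26672, with 17.7 to 23.7 CPM in WT, covers 1381 of the 2637 private bases of Pcdhga11 and all 2613 of Pcdhga10, so those levels may hold its reads. The excess of Pcdhgc3 was lowest at 123 CPM, with a median of 140 and a highest value of 149 in WT. In MD1 it was 116, 105, 118 and 90.2 CPM, all below WT. The log2 fold change of -0.36 ± 0.09 did not pass the threshold (adjusted p = 0.496) and ran from -0.41 to -0.29 with 1 library left out. Of its 3380 private bases, 1559 are also covered by the model BC037039. That model had 77.9 to 93.6 CPM in WT and 53.6 to 79.9 in MD1 (log2 fold change -0.34 ± 0.11, adjusted p = 0.495). Reads of BC037039 and of Pcdhgc3 cannot be told apart there, and the part of that model in the excess was not tested. Pcdhgc4, which is known to be required for the survival of many neurons, had 2.36 to 6.10 CPM in WT and 3.52, 4.68, 1.93 and 1.75 in MD1 (log2 fold change -0.46 ± 0.32, adjusted p = 0.594). Leaving out single libraries gave -0.75 to -0.24. Pcdhgc5 had 22 excess reads over the WT libraries and 1 over the MD1 libraries and was not tested.

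Of the 19 gamma genes with enough excess reads to test, Pcdhgb4 and Pcdhga7 were higher in MD1 and Pcdhgb6 was lower at the threshold. Pcdhga7 and Pcdhgb6 lie outside the naming rule and were named after their values were seen. Pcdhgb4 had an excess of 1.61 to 4.16 CPM in WT and of 9.17, 7.07, 15.2 and 12.0 in MD1 (log2 fold change 1.84 ± 0.26, adjusted p = 0.0211). Pcdhga7 had 4.72 to 5.54 CPM in WT and 9.17, 9.46, 12.3 and 9.26 in MD1 (0.97 ± 0.14, adjusted p = 0.0215). Of its 3098 private bases, 536 also lie in the model Gm37165. That model had 1.42 to 2.11 CPM in WT and 1.595 to 3.62 in MD1, highest in replicate 3 (log2 fold change 0.53 ± 0.25, adjusted p = 0.511). Pcdhgb6 had 9.11 to 14.7 CPM in WT and 6.36, 5.78, 3.14 and 4.63 in MD1 (-1.27 ± 0.20, adjusted p = 0.0403). In none of these 3 genes did the groups overlap.

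These 3 calls were close to the threshold and sensitive to single libraries. Leaving out each of the 10 libraries in turn ended the call of Pcdhgb4 in 6 cases, of Pcdhga7 in 8 and of Pcdhgb6 in 9, with log2 fold changes that stayed between 1.66 and 1.99, between 0.88 and 1.01 and between -1.42 and -1.14. The highest adjusted p in those fits was 0.0788, 0.0893 and 0.157. Pcdhgb4 lost its call without WT replicates 2, 3, 4 or 6 or MD1 replicates 1 or 3. Pcdhga7 lost it without any single WT library or without MD1 replicates 1 or 3, and Pcdhgb6 kept it only when WT replicate 2 was left out. Without both MD1 libraries labelled female the adjusted p were 0.0932, 0.0743 and 0.15.

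Among the 19 tested gamma genes 11 were higher and 8 lower in excess, and 12 had an unadjusted p under 0.05, where 9.82% of all rows of that fit did. The other values ran from -1.25 ± 0.44 for Pcdhga6 to 1.02 ± 0.46 for Pcdhga2, with Pcdhga4 at 0.95 ± 0.18 (adjusted p = 0.192). Over all 21 gamma genes, MD1 lay above every WT library in 6 (Pcdhga4, Pcdhgb2, Pcdhga5, Pcdhga7, Pcdhgb4 and Pcdhgb5) and below in 3 (Pcdhga6, Pcdhgb6 and Pcdhgc3), where 1.02% and 1.09% of the rows of the fit did so. In the 14 alpha genes it lay above in 6 and below in 0, but only 1 of those 6 had enough reads to be tested. The shared part of the gamma cluster, which makes up most of each gene's count, was 205 ± 14 CPM in WT and 189 ± 19 in MD1 (log2 difference -0.12 ± 0.08, SE from the same fit). That of the alpha cluster was 3.475 ± 1.43 CPM in WT and 8.64 ± 4.03 in MD1, with groups that overlapped. Its log2 difference of 1.35 ± 0.34 missed the threshold in that fit (edgeR, adjusted p = 0.496).

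**Figure D4:**
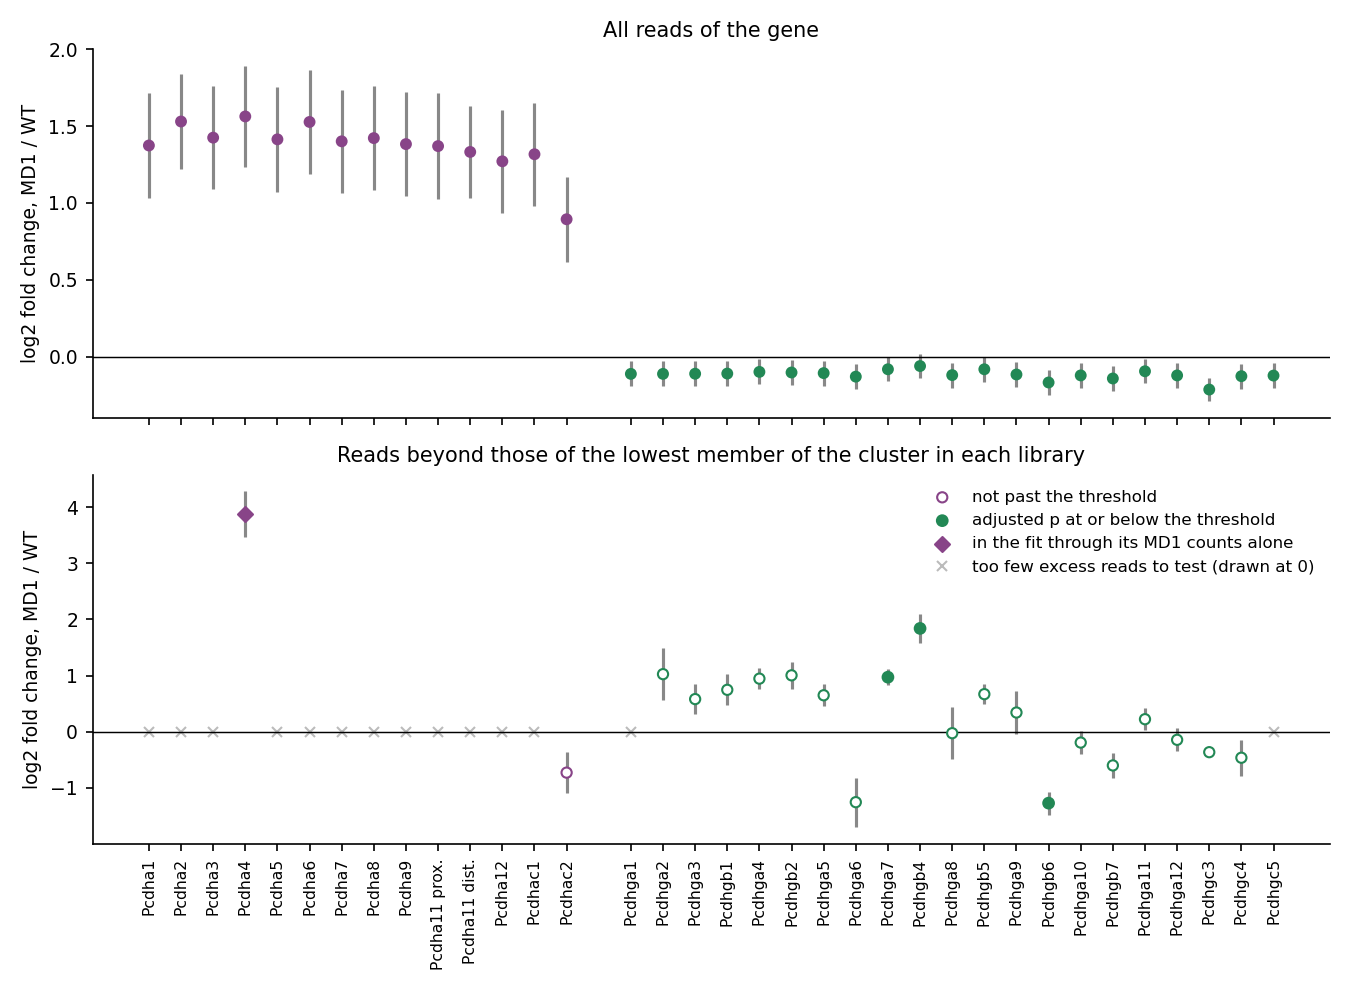
Log2 fold change of MD1 over WT for each gene in order along the chromosome, alpha in purple and gamma in green, for all reads of the gene (top) and for reads beyond the lowest member of the cluster (bottom), with bars of 1 SE. Filled circles in the lower panel passed the adjusted threshold (Pcdhga7 at 0.97, Pcdhgb4 at 1.84, Pcdhgb6 at -1.27), the diamond is Pcdha4 (3.87), which entered the fit through its MD1 counts alone, and crosses at 0 are genes with too few excess reads to test.

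**Figure D5:**
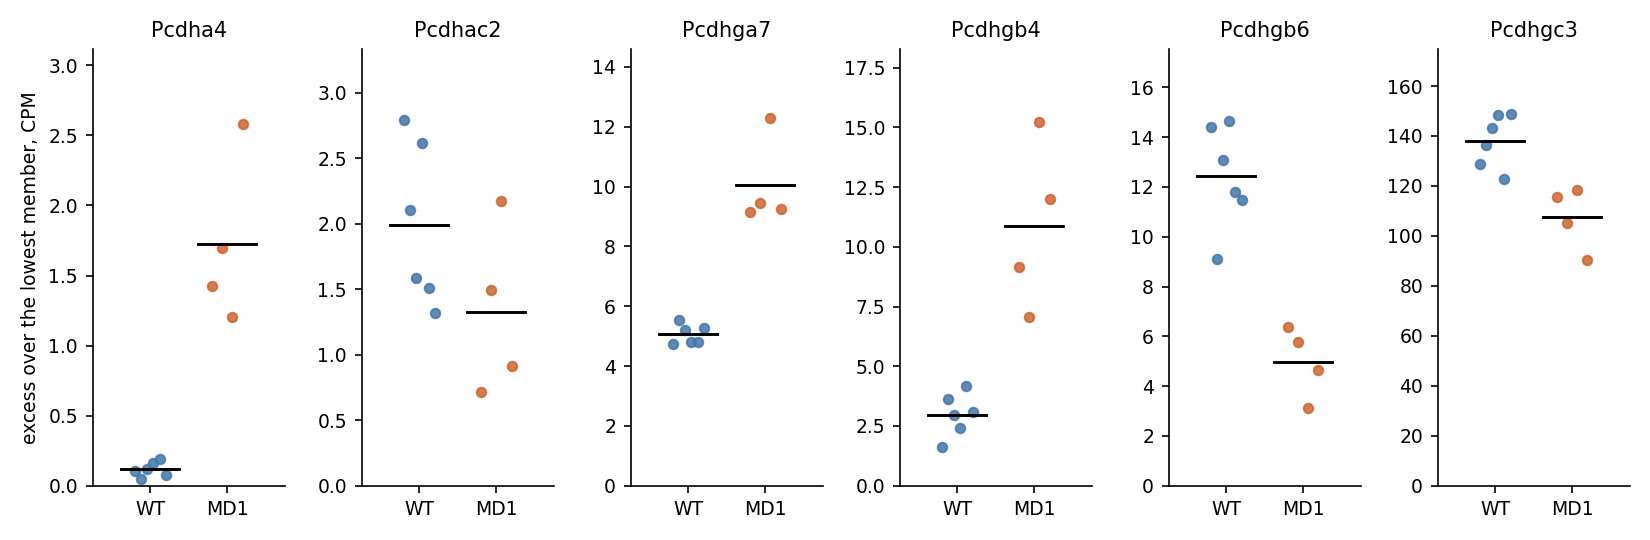
Excess over the lowest member of the cluster, in CPM, for 6 genes in each WT (n = 6) and MD1 (n = 4) library, with bars at the group means and a separate vertical scale per gene. The groups do not overlap for Pcdha4, Pcdhga7, Pcdhgb4, Pcdhgb6 and Pcdhgc3, and they overlap for Pcdhac2.

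No alpha or gamma gene was called for a genotype effect that differed between the sex labels. By whole-gene counts, the alpha log2 fold changes ran from 1.10 to 1.78 in libraries labelled female and from 0.60 to 1.34 in those labelled male. The test of the difference passed the threshold for 0 of 35 genes (edgeR, lowest adjusted p 0.662 for alpha and 0.575 for gamma), with 0 genes at an unadjusted p under 0.05. The share of all genes called in that test is not given here, so these counts of 0 are not a result about the 35 genes. Since the library labelled MD1 female replicate 1 goes against its label, MD1 replicate 4 is the one MD1 library that is female by both label and reads.

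Markers of cell types that could carry these genes were compared between the groups. Neuronal markers, where alpha protocadherins are best known, summed to 290 to 476 CPM in WT and 241 to 440 in MD1, and 0 of 9 tested passed the threshold. Neuroepithelial markers summed to 969 to 1249 CPM in WT and 1051 to 1200 in MD1 (0 of 9). Facial mesenchyme markers, which define the bulk of the FNP, summed to 1304 to 1848 CPM in WT and 904 to 1544 in MD1 (0 of 8), surface ectoderm markers to 178.9 to 221.5 and 191 to 295 (0 of 6), and olfactory placode markers to 183 to 279 and 182 to 248 (0 of 7). None of the markers was at 0 over all libraries, and all 5 ranges overlapped. In bulk tissue a change in the number of cells that express a gene cannot be told apart from a change in RNA per cell.

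Other genes of protocadherin biology passed the threshold in neither direction. Of 24 regulators of the promoters (CTCF, cohesin, SMCHD1 partners and chromatin and DNA methylation enzymes), 21 were tested, with 11 higher, 10 lower and a median log2 fold change of 0.00. The 3 with the smallest p were Lrif1, a partner of SMCHD1 (21.9 ± 2.1 CPM in WT, 32.0 ± 1.5 in MD1, log2 fold change 0.55 ± 0.10, adjusted p = 0.113), the H3K9 methyltransferase gene Ehmt2 (-0.19 ± 0.07, adjusted p = 0.495) and the maintenance DNA methyltransferase gene Dnmt1 (-0.16 ± 0.07, adjusted p = 0.502). Of 23 effectors that act downstream of the protocadherin tails, 23 were tested, with 9 higher, 14 lower and a median of -0.01. Their smallest p belonged to Wasf1 and Abi1 of the WAVE actin regulatory complex (-0.26 ± 0.10 and 0.26 ± 0.10) and to Ptk2b, a kinase bound by the constant tail (1.56 ± 0.69, from 0.445 CPM in WT), all with an adjusted p of 0.495 or more.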

How the data were processed

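RNA of FNP tissue was sequenced from 6 WT and 4 MD1 libraries, grouped by the labels alone. According to the study's methods and the submitters' processing notes, the authors trimmed reads with Trim Galore 0.4.4, aligned them with HISAT2 2.0.5 to GRCm38.p6 and counted them per gene in SeqMonk (bcl2fastq is also named). The deposited counts are whole reads per gene, not normalized, and the deposited log2 RPKM values were scaled by the authors for library size and length. A read in a constant exon was counted for every member. The labels name a library kit that does not mark strand, the study's methods also name a stranded one, and no source used here gives the strand setting, so antisense overlaps are taken as inseparable. Averages per genotype were not used. The labels give no batch.

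The members, gene lists and tests were chosen with earlier results of these data known. Symbols turned into dates were restored in 27 rows, and 49 rows with a repeated identifier took the identifier of their coordinates. Counts were tested with the quasi-likelihood method of edgeR 4.0.16 in R 4.3.3 (filterByExpr, TMM, Benjamini-Hochberg over 15471 autosomal genes, threshold 0.05). The excess is a gene's count minus the lowest count of its cluster in that library, fitted with the scaling of the whole table. Named genes were, per cluster, the highest and lowest WT level, the largest WT excess, the largest and smallest fold change and the C-type members, with Smchd1 and the 3 smallest p of each pathway list. Alternatives were DESeq2 1.42.0, limma 3.58.1, other scalings, filters and covariates, a replicate block and leaving out libraries. Fits were tested on simulated data. All 45 pairs of libraries differed by more than counting noise.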

Additional observations from a re-analysis of the deposited data

Results flagged for a closer look

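Of 25 groups of libraries examined for a single distant value (the readouts and the excess of the named genes), 3 held one, all in MD1 replicate 3, the shallowest library. The rule uses a 95% critical value, so chance flags about 1 in 20 independent groups, and these groups share libraries. The excess of Pcdha11 (distal row) was 2.17 CPM there (9 reads) and at most 0.199 in the other MD1 libraries. Of its 4675 private bases, 3407 also lie in exons of the models Gm10545, Gm10544 and Gm18150. Gm10545 had the same 2.17 CPM in MD1 replicate 3 and 0.498 to 0.608 in the other MD1 libraries, so this value cannot be assigned to Pcdha11. The excess of Pcdhgc5 was 0.241 CPM (1 read) against 0 in the others. The excess of Pcdhga7 was 12.3 CPM (51 reads) against at most 9.46, and without that library its log2 fold change was 0.88 with an adjusted p of 0.0536 (edgeR). The parts of depth and of overlapping models in these values were not tested.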

How the results depend on the processing

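The cluster readouts kept their direction in every alternative run. Leaving out 1 library at a time, the MD1 minus WT difference in log2 readout lay between 1.06 and 1.59 for alpha, between -0.19 and -0.09 for gamma and between 1.17 and 1.68 for their ratio. The alpha count past the threshold was 11 with DESeq2 and 7 with the exact test of edgeR, against 0, and stayed 0 in the other alternatives on whole-gene counts. The gamma count was 0 in all of those. Subtracting the lowest member gives the excess counts, 3 for gamma and 1 for alpha, where the 1 is Pcdha4, which entered the fit only through its MD1 counts and had to differ. The alternatives to the excess fit were added after seeing the data. Of the excess fits, only the main one has its share of all rows called given here (0.103%). The counts in its alternatives therefore cannot be set against a background. The alpha excess count of 1 became 2 without a filter on low counts, 0 without both MD1 libraries labelled female and 1 to 2 with 1 library left out. The gamma excess count of 2 higher became 4 with DESeq2, 3 with the exact test of edgeR and 0 without both MD1 libraries labelled female. With 1 library left out it was 0 to 2. The gamma excess count of 1 lower became 0 with limma-voom, library total scaling, the sex label as a covariate, 1 member subtracted in all libraries, or without both MD1 libraries labelled female, and 0 to 1 with 1 library left out. Of the regulators, 1 passed with DESeq2 and 1 with the exact test, against 0. The cause of these shifts was not tested. Limits: excess counts are small, above all in MD1 replicate 3, and a low private read count in the lowest member is lost.

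Replicate numbers gave no sign of pairing, as 0 of 4 MD1 libraries correlated best with the WT library of the same number and the correlations of deviations were between -0.16 and 0.09. With the number as a replicate block, 0 genes were called in place of 12, and the alpha and gamma excess counts were 0, 0 and 0. WT replicates 5 and 6 have no MD1 library of the same number, so the contrast in the replicate block rests on the 4 shared numbers. The readout differences in the replicate block were 1.18 for alpha, -0.13 for gamma and 1.31 for their ratio.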

Other observations

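Private bases of the 35 genes overlap 13 other gene models, of which 12 were in the table, 7 were tested and 0 passed the threshold. The values of 2 of them are given here. Gm42416, whose exons overlap the variable exon of Pcdha4, had 37.2 to 47.0 CPM in WT and 38.9, 38.5, 37.9 and 36.3 in MD1 (log2 fold change -0.18 ± 0.09, adjusted p = 0.508, edgeR). The whole count of Pcdha4 was 2.02 to 5.84 CPM in WT and 5.31 to 16.5 in MD1. Most reads of Gm42416 were therefore not counted for Pcdha4, and its fold change does not describe that exon. Gm38182, which overlaps private bases of Pcdhgc5, had 52.7 to 65.2 CPM in WT and 56.1, 53.6, 53.1 and 49.6 in MD1 (-0.18 ± 0.08, adjusted p = 0.506).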
